A study of Mus musculus with 18 samples.

Results

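The lens of the Dbl transgenic mouse was followed here from 14 to 42 days of age, within the transgenic lenses alone. The comparison takes the 6 arrays labelled as Dbl lenses of these ages, 3 of 14 days and 3 of 42 days, out of 18 arrays in the series. The other arrays are 3 Dbl arrays of 2 days and 9 arrays of wild type (wt) lenses of 2, 14 and 42 days. Each array holds RNA of an independent pool of 4 to 8 whole lenses. The Dbl mice carry the cDNA of the Dbl oncogene, a guanine nucleotide exchange factor, behind the mouse metallothionein promoter, which is active in many cell types. Founders were FVB/N, and mice that transmitted the transgene were bred with Balb/c. The sources used here give no sex, do not tell how many mice a pool came from, and do not say how far iris, ciliary body and retina were cleaned from the dissected lens. FVB/N mice carry the rd allele of Pde6b, which causes retinal degeneration, whereas Balb/c mice are rd+, and no source used here gives the genotype of the pooled mice at this gene. The question was how transcript levels in Dbl lenses differ between these ages. Dbl itself (Mcf2) was not analysed here.

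The lens is an epithelial organ wrapped in a thick basement membrane, the capsule. A single layer of epithelium lies under the anterior capsule, and at the equator its cells leave the cell cycle, elongate and become fiber cells packed with crystallins. Collagen IV, laminins, nidogen and perlecan build the capsule, whereas interstitial collagens, elastin and tenascin belong to fibroblasts and are scarce in a healthy lens. The eye also holds tissues close to the lens whose RNA can be recognised by defining transcripts, such as the phototransduction genes of the retina and the melanin genes of iris, ciliary body and retinal pigment epithelium. In pooled whole lenses fewer cells of a type and less RNA per cell cannot be told apart.

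The 6 arrays did not fall into 2 clean groups by age. Pearson correlations of log2 signals were taken over 6565 probe sets (mean signal above 200), which are not independent of each other. Dbl 14 days replicates 2 and 3 correlated at 0.931, while replicate 1 of that age reached 0.610 with replicate 2 and 0.625 with replicate 3. Its highest correlation was 0.809, with wt 14 days replicate 1. Among the 42 days arrays the correlations were 0.795, 0.805 and 0.709. Yet the closest match of replicate 2 was Dbl 2 days replicate 1 (0.951), and that of replicates 1 and 3 was Dbl 2 days replicate 2 (0.958 and 0.815). Each of the 3 arrays of 42 days was thus closer to a Dbl array of 2 days than to any array of its own group. The trimmed mean of the signals as deposited was 95.2 for Dbl 14 days replicate 1, 69.8 for Dbl 42 days replicate 2 and 45.1 for Dbl 42 days replicate 3, and 500.3 for the other 3 arrays. The Gapdh control probe sets had a 5'/3' ratio of 0.323 in Dbl 42 days replicate 3 and of 0.979 to 1.33 in the other 5. Whether the labels of Dbl 14 days replicate 1 and Dbl 42 days replicate 2 are right was not tested, and the labels were kept. The same holds for Dbl 42 days replicate 1, whose match with a 2 days array (0.958) was the closest of the 3. Differences and medians below come from all 6 arrays. Values without Dbl 14 days replicate 1 or without Dbl 42 days replicate 2 follow where they move a difference by over 1.5-fold or a list's median by over 1.5 times.

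**Figure D1:**
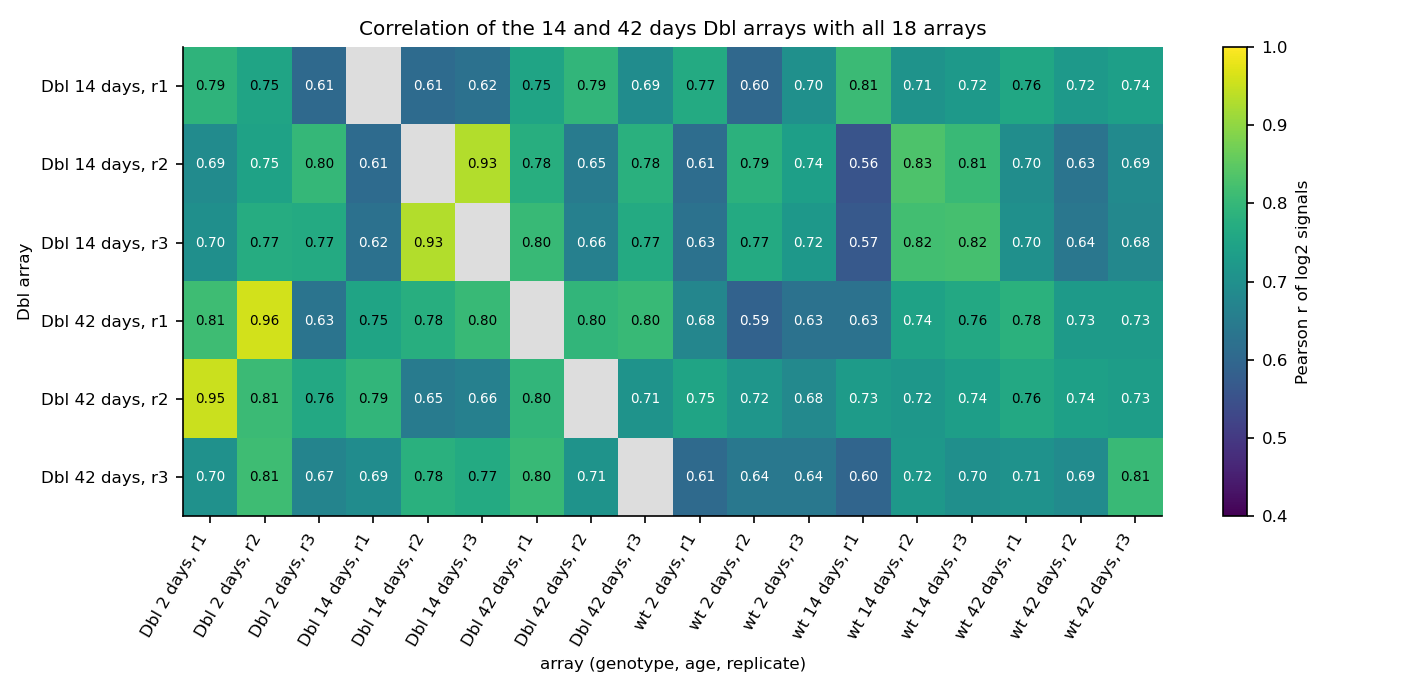
Pearson correlation of log2 signals between each of the 6 Dbl arrays of 14 and 42 days (vertical axis) and all 18 arrays (horizontal axis), across 6565 probe sets; r1 to r3 are replicates and grey cells are an array with itself. Dbl 14 days r2 and r3 match each other at 0.931, r1 of that age does not exceed 0.625 with them, and Dbl 42 days r1 and r2 have their brightest cells under a 2 days array (0.958 and 0.951).

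The lens identity of the pools was checked on the crystallins. Cryaa, the alpha-A crystallin chaperone of the lens, had signals of 50899, 54712 and 64531 in replicates 1, 2 and 3 at 14 days and of 36521, 67609.9 and 66117 at 42 days, the replicates being given in this order throughout. Signals were scaled so that the trimmed mean of every array is 500, and Cryaa lay far above it in all 6 arrays.

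No probe set passed the test between Dbl lenses of 42 and 14 days. Of 12422 probe sets, 0 (0.0%) had an adjusted p under 0.05 (limma with a common spread over 6 groups, Benjamini-Hochberg), and the lowest adjusted p was 0.520. At an unadjusted p under 0.05 there were 1012 (8.15%), of which 403 were higher (3.24%) and 609 lower (4.9%) at 42 days. Signals of the 3 arrays of one age lay wholly above those of the other for 455 of 8251 genes in the direction of 42 days (5.51%) and for 592 in the direction of 14 days (7.17%). These shares were 8.7% and 12.2% without Dbl 42 days replicate 2, and 15.0% and 26.0% without Dbl 14 days replicate 1. Fewer arrays make overlap rarer in both settings alike. Why the shares differ between these settings was not tested. By a rule like that of the study's methods, group means differing at least 1.5-fold with no overlap, 491 probe sets were higher (3.95%) and 750 lower (6.04%), but 3 against 3 arrays cannot reach a two-sided exact p below 0.1. The median log2 difference of all probe sets was -0.13, and 0.01 after scaling each array to its median, so differences should be read against that shift. With Dbl 42 days replicate 2 left out, 0 probe sets passed again (lowest adjusted p 0.155) and 765 (6.16%) had an unadjusted p under 0.05.

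The 12 genes higher at 42 days with the smallest p, chosen among those with no overlap between the ages and a mean signal above the median probe set, have varied functions. Stoml2, a scaffold protein of the inner mitochondrial membrane, stood first. Its signals were 516, 783 and 681 at 14 days and 1418, 1819 and 2569 at 42 days, a log2 difference of 1.53 ± 0.31 (± standard error of the fit here and below, 3 arrays an age). Every 42 days array was far above every 14 days array, and the difference was 1.55 without Dbl 42 days replicate 2. Fdps, the farnesyl diphosphate synthase that feeds cholesterol synthesis and protein prenylation, had signals of 1418, 780.3 and 761 against 3355, 4822 and 2238 (log2 1.81 ± 0.50). Other probe sets of Fdps, with mean signals of 1129 and 17.6, had 0.84 and 0.41, and a dim one at 78.8 had -0.90. Rce1, the protease that trims prenylated proteins such as Ras, had signals of 404, 91.2 and 320.0 against 821, 679 and 649.5 (log2 1.65 ± 0.46). Both genes belong to the isoprenoid pathway or act on its products. Set, a histone chaperone and inhibitor of protein phosphatase 2A, was at 1269, 650.3 and 634 against 1376, 2167 and 2675, but its brightest probe set, another one, had a log2 difference of -0.09.

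The other 8 genes of this group were Mgst3 (a microsomal glutathione transferase), Fbxw4 (an F-box protein of ubiquitin ligases), Abcf2 (an ATP-binding cassette protein of the cytosol), Use1 (a SNARE protein of the endoplasmic reticulum), Nop53 (a ribosome assembly factor), Hdac3 (a histone deacetylase), Cnbp (a nucleic acid binding zinc finger protein) and Pqbp1 (a splicing factor). Abcf2 had a log2 difference of 3.25 ± 0.88, with signals of 73.9, 52.2 and 56.3 against 922, 622 and 326. Its 14 days signals lie under 129, the 40th percentile of signals, where the size of a difference is not exact. The second probe set of Abcf2, with a mean signal of 28.9 over the 6 arrays, had a log2 difference of -0.60, and the second probe sets of Mgst3 and Fbxw4 had 0.13 and -0.09. Signals of Mgst3 were 292, 205 and 159 against 1244, 1752 and 575, and those of Cnbp 3955, 2293 and 1480.4 against 4229.7, 7919 and 6789. Hdac3 barely kept the groups apart, at 413, 69.5 and 63.3 against 677, 523 and 415, because Dbl 14 days replicate 1 was nearly as high as the lowest 42 days array. Over the 12 genes the log2 differences ran from 1.31 to 3.25 and each had an adjusted p of 0.520 in limma, so none passed.

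The 12 genes lower at 42 days were chosen by the same rule and have varied functions as well. Sptan1, the alpha spectrin of the membrane skeleton, had signals of 7584, 3720.2 and 6365 at 14 days and 2259.8, 2320.0 and 1306 at 42 days, a log2 difference of -1.57 ± 0.33. Col9a1, a chain of collagen IX, was at 2741, 1747 and 3715 against 612, 1457 and 501 (log2 -1.77 ± 0.39). Col5a1, the collagen V chain that nucleates collagen fibrils, was at 1190.5, 1007 and 1145 against 403, 442 and 408 (log2 -1.41 ± 0.35). Here both ages were tight, and the highest 42 days array was far below the lowest 14 days array. Its dimmer second probe set had a log2 difference of -1.26 with overlap. Pdgfra, the receptor for platelet-derived growth factors on mesenchymal cells, was at 4793, 1967 and 2468 against 1018, 719.6 and 1319.7 (log2 -1.53 ± 0.40). A second probe set of Pdgfra, with a mean signal of 23.3, had a log2 difference of -4.13, and the third, at 191, one of -0.31.

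The remaining 8 were Plxna3 (a semaphorin receptor), Spsb1 (a SOCS box adaptor of ubiquitin ligases), Fam189b, the transcription factors Pbx3 and Nfib, Cdsn (corneodesmosin, an adhesion protein of cornified epithelium), Cdh3 (P-cadherin) and Pola2 (a subunit of the DNA polymerase alpha complex). Nfib had the largest log2 difference, -2.60 ± 0.67, with signals of 1336, 477 and 687 against 256, 276 and 27.8. Dbl 42 days replicate 3 was the lowest by far, while replicates 1 and 2 of that age still lay below every 14 days array. Cdh3 was at 445, 483 and 602 against 314, 194 and 70.8, and Plxna3 at 931, 754 and 886 against 349, 362 and 237. The second probe set of Pola2 went the other way, with a log2 difference of 0.78, and the brightest probe set of Pbx3, another one, had -0.76 with overlap. Log2 differences of the 12 ran from -1.41 to -2.60 and none passed, with an adjusted p of 0.520 for each in limma.

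**Figure D2:**
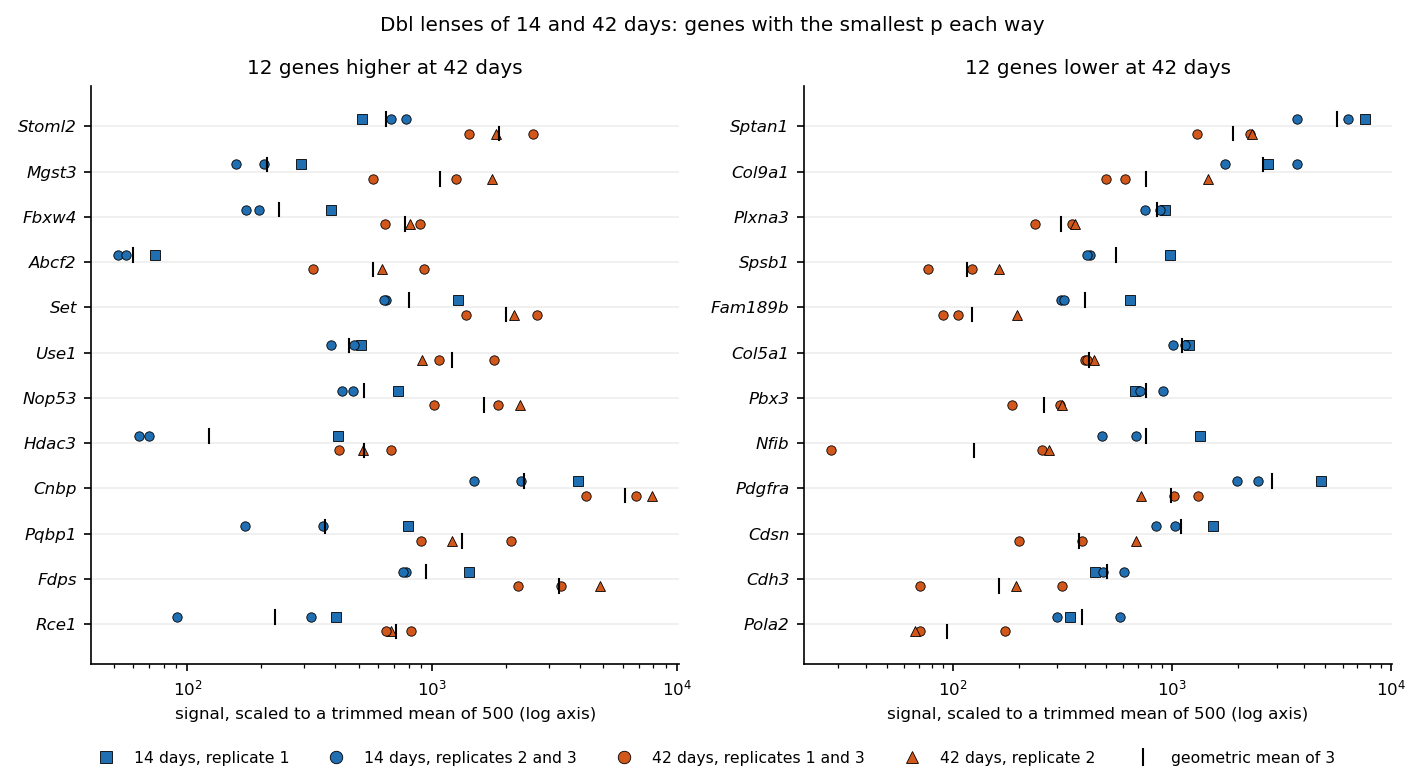
Scaled signal (horizontal axis, log scale) of the 12 genes higher and the 12 genes lower at 42 days that had the smallest p in each direction and groups that do not overlap; each point is 1 array, blue for 14 and orange for 42 days, the square is Dbl 14 days replicate 1, the triangle Dbl 42 days replicate 2, and the black bar the geometric mean of 3 arrays. Groups are apart in every row because the rule required it, and in Col5a1 the 42 days points are close together (403 to 442).

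Without Dbl 42 days replicate 2 the adjusted p of these 24 genes ran from 0.155 to 0.779. Their direction is no sign of stability, because the rule that chose them allowed no overlap between the ages and so fixes the sign when an array is left out. With the 2 classes of deposited trimmed mean as a block in the fit, no probe set passed. In wt lenses, which share no array with this comparison, 10 of the 12 genes higher in Dbl lenses and 11 of the 12 lower ones had the same sign from 14 to 42 days, 6 and 6 of them with no overlap (8.59% of all genes were higher and 7.01% lower in this way in wt lenses). The exceptions in wt were Stoml2 (-0.43 log2), Hdac3 (-0.38) and Cdh3 (0.19). The wt arrays repeat traits of the Dbl arrays, however. Deposited trimmed means were 50.4 for wt 14 days replicate 1 and 24.2 and 48.1 for wt 42 days replicates 2 and 3. The Gapdh 5'/3' ratio was 0.294 in wt 42 days replicate 3. The part of these shared traits in the common signs was not tested, and the share of all genes with a common sign was not taken.

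Leaving out Dbl 14 days replicate 1 in place of Dbl 42 days replicate 2 brought 5 probe sets (0.0403%) past an adjusted p of 0.05, 3 higher and 2 lower at 42 days, and 1851 (14.9%) under an unadjusted p of 0.05. The genes are named here because they passed, after their values were seen. Ruvbl1, an ATPase of chromatin remodelling complexes, had signals of 46.8 and 30.8 in Dbl 14 days replicates 2 and 3 against 601, 1537 and 1471 at 42 days, but 825 in replicate 1. Polr1e, a subunit of RNA polymerase I, had 5.4 and 7.11 against 101, 189 and 87.7, and 126 in replicate 1. The third gene was Hdac3, whose signals are given above. Of the genes lower at 42 days, Gnat1 is described with the retinal genes, and Cst7, a cystatin of myeloid and lymphoid cells, had 252 and 356 against 14.8, 20.1 and 23.4, with 32.3 in replicate 1. In all 5 genes the left-out array was nearer to the 42 days arrays than to the other arrays of its own group. The choice of genes that passed once this array was left out favours that pattern, so it is no separate result about the array. With weights estimated for each array, 32 probe sets were higher and 36 lower at an adjusted p under 0.05 (0.547% together), among them 9 and 4 of the 12 and 12 genes above. Most of these probe sets had an adjusted p of 0.0497 in limma, just under the threshold. The weights were estimated from the same signals, and the genes above were chosen by small p in these data. Their passing is therefore no separate support. With both Dbl 14 days replicate 1 and Dbl 42 days replicate 2 left out, 1 passed (Ruvbl1, 0.00805%). Dbl 14 days replicate 1 had a weight of 0.299, the lowest of the 18 arrays, and Dbl 42 days replicate 2 one of 0.793.

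Crystallins, the structural proteins of the lens, overlapped between the ages in nearly every case. Of 9 measured crystallin genes 0 passed, 1 was lower in all 3 arrays of 42 days, and 8 overlapped, with a median log2 difference of -0.34 beside -0.10 over all 8251 genes. That gene was Cryab, the alpha-B crystallin small heat shock protein, at 14173, 6119 and 6150.3 against 3448, 5867 and 3090.3 (log2 -1.03 ± 0.51). A dim second probe set of Cryab, with a mean signal of 59.8, had a log2 difference of 1.08 with overlap. Dbl 42 days replicate 2 was the highest of the 42 days arrays for all 9. Crygb was at 26860.1, 11460.1 and 11342 against 10500.5, 21843 and 4021, and Crygc at 43592, 11376 and 16814 against 14559.6, 40263 and 9793. Without that array the median over the 9 crystallins was -0.66, and without Dbl 14 days replicate 1 it was -0.23. Over all 8251 genes the medians in these settings were -0.09 and -0.22.

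Fiber cell genes were split by the same 2 arrays. Mip, the aquaporin of the fiber membrane, had signals of 12329, 2311 and 1772 against 1463, 11697 and 576, and Bfsp1, the beaded filament protein filensin, 9722, 635 and 928 against 607, 4689.7 and 560.1. Gja3, a connexin of fiber gap junctions, was at 1069.8, 76.3 and 103 against 145, 866 and 22.1. In these 3 genes Dbl 14 days replicate 1 and Dbl 42 days replicate 2 were several times higher than the other 4 arrays, and the ages overlapped. The median over 11 fiber genes was -0.62, -1.03 without Dbl 42 days replicate 2 and -0.09 without Dbl 14 days replicate 1. In contrast, 2 fiber genes were lower in every 42 days array. Sptbn1, the beta spectrin that pairs with the product of Sptan1, was at 3847, 4172 and 4157 against 2368, 1835 and 2264 (log2 -0.92 ± 0.29), with no array far from its group. Prox1, a homeodomain factor needed for fiber elongation, was at 425, 407 and 479 against 363, 302 and 77.4 (log2 -1.10 ± 0.60).

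Of 15 lens epithelial genes, 0 passed, 2 were lower and 1 higher without overlap, and the median was -0.29, and -0.10 without Dbl 14 days replicate 1. Itga6, the integrin that anchors epithelium to laminin, was at 672, 203 and 236 against 80.7, 88.8 and 183 (log2 -1.54 ± 0.58). Six3, a transcription factor of lens and eye formation, was at 1507, 1294 and 1470.2 against 1059, 960.3 and 416 (log2 -0.92 ± 0.39). The gene that was higher, Cdkn1b, encodes the cell cycle inhibitor p27 and had signals of 19, 65.4 and 37.6 against 102, 194 and 146 (log2 1.99 ± 0.71), with a second probe set at 0.11. Its 14 days signals lie under 129. E-cadherin (Cdh1) overlapped, at 510.2, 658 and 593 against 353, 379.8 and 568.

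Basement membrane genes had the lowest median of the 42 gene lists with all 6 arrays, a rank that was lost without Dbl 14 days replicate 1. Of 18 measured, 0 passed, 4 were lower in all 3 arrays of 42 days, 0 were higher, and 16 had a fitted difference below 0, as had 4584 of all 8251 genes, with a median of -1.0. Col4a1, a main collagen chain of the capsule, was at 9837, 6516 and 7105 against 1408, 4192 and 1515 (log2 -1.89 ± 0.56). Lama2, a laminin alpha chain, was at 295, 154 and 232 against 50.3, 25.7 and 115 (log2 -2.05 ± 0.65), and Lamc1, the laminin gamma chain shared by most laminins, at 805, 601 and 527 against 408, 427 and 134 (log2 -1.15 ± 0.58). The 3 genes have no array of 42 days inside the range of 14 days. The fourth was Col4a4, whose signals were below 129 in 5 of the 6 arrays. For several members the size of the difference rests on Dbl 14 days replicate 1, which was high for Col4a2 (12458, 1009 and 1574), Hspg2 (1489.7, 113 and 149.5) and Sparc (10826, 3566 and 3127). Without that array the median of the list was -0.31, beside -0.22 over all genes. Without Dbl 42 days replicate 2 it was -1.30, beside -0.09 over all genes. In these settings Col4a1 had log2 differences of -1.71 and -2.40.

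The promoter of Col4a1 is shown because this gene is the brightest basement membrane gene with ages that do not overlap. The window, printed 5' to 3' along the gene as in the other promoters, runs from 250 bases before to 50 bases after the RefSeq start, at chr8:11312777-11313076 on the minus strand of GRCm38.p6, and capitals mark a CCAAT box, the NF-Y element, read on the opposite strand:
Col4a1: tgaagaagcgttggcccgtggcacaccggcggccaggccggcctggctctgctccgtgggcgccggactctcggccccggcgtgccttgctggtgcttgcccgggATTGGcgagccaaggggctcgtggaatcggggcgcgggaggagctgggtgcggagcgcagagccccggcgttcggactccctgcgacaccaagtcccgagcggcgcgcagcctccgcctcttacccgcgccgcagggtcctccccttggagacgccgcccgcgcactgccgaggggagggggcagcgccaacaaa
CCAAT on either strand is in 37.4% of 32851 promoters of this length and in 6 of 15 promoters found for 13 of the basement membrane genes.

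Genes of fibroblasts and interstitial matrix had a median below 0. Of 28 measured, 0 passed, 6 were lower in all 3 arrays of 42 days, 0 were higher, and the median was -0.70. Beside Col5a1 and Pdgfra these were Eln, Tnc, Col6a3 and Ogn. Eln (elastin) was at 1489.8, 640.3 and 744 against 531, 409 and 286 (log2 -1.17 ± 0.48), and Tnc (tenascin C, a matrix protein of wounds and development) at 887, 532 and 483 against 223, 175 and 347 (log2 -1.36 ± 0.58), with a dim second probe set of Tnc at 0.16. Col6a3 barely kept the ages apart, at 2141, 670.5 and 627 against 435, 378 and 627. The fibrillar collagens of scars overlapped. Col1a1 was at 1024, 687 and 906 against 464, 234 and 1201, and Col1a2 at 944, 2101 and 2062 against 1082, 859.6 and 1113. Without Dbl 42 days replicate 2 the median was -0.45, and without Dbl 14 days replicate 1 it was -0.43. Without both it was 0.06, so the sign of this median rests on these 2 arrays. Over all genes the medians in these settings were -0.09, -0.22 and -0.21. The summed signal of the 28 genes was 18128 to 56149 at 14 days and 13529.8 to 21429 at 42 days, the highest value being that of Dbl 14 days replicate 1.

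**Figure D3:**
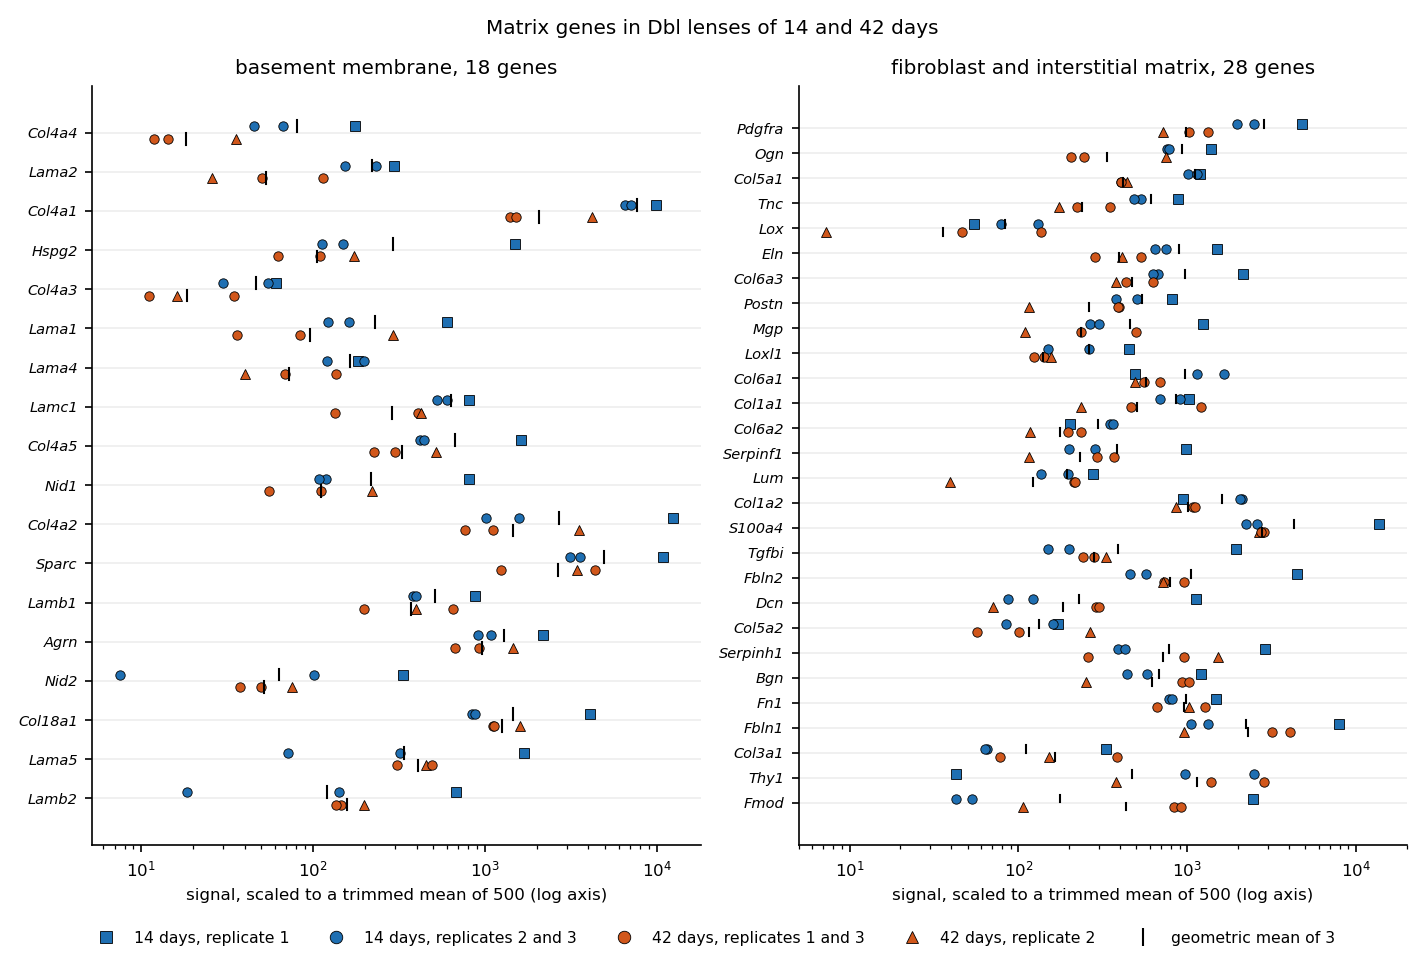
Scaled signal (horizontal axis, log scale) of the 18 basement membrane genes and the 28 fibroblast and interstitial matrix genes measured, ordered by log2 difference from the lowest at the top; points are arrays, blue for 14 and orange for 42 days, the square Dbl 14 days replicate 1, the triangle Dbl 42 days replicate 2, and black bars geometric means of 3 arrays. Col4a1 and Col5a1 show 2 separate groups, whereas Col4a2 and Sparc owe most of their distance to the blue square.

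Matrix proteases had a median below 0 as well. Of 26 proteases and inhibitors, 0 passed, 4 were lower without overlap and 0 higher, with a median of -0.50. Mmp12, the macrophage elastase, was at 1795, 1213 and 1153 against 581, 128 and 582 (log2 -1.95 ± 0.70). Its difference was -1.22 without Dbl 42 days replicate 2, the lowest array, and its second probe set had -1.57. Plat, the tissue plasminogen activator, was at 4173, 1739 and 2145 against 1280.3, 1341 and 1205 (log2 -0.97 ± 0.38). The 42 days arrays of Plat lay close together. Adam9, a membrane protease, was at 968, 798 and 536 against 459, 388 and 513. Mmp3, the fourth, had signals below 129 in all 6 arrays. Mmp14, which activates pro-Mmp2 at the cell surface, overlapped, at 1449.8, 912 and 1209 against 813, 1056 and 730.0. Of 9 factors that drive epithelial to mesenchymal transition, 2 were lower without overlap. Prrx1 was at 126, 154 and 142 against 39.7, 42.6 and 70.5 (log2 -1.51 ± 0.65), and Snai1 was below 129 in all 6 arrays. Zeb1 had overlapping signals of 842, 578 and 645 against 456, 522 and 603, and the median of the 9 was -0.66.

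Myeloid genes were lower in 42 days lenses for some defining markers but not for others. Of 23 measured, 0 passed, 4 were lower and 1 higher without overlap, and the median was -0.51, and -0.32 without Dbl 42 days replicate 2. Itgax (the integrin CD11c) was at 634, 295 and 312 against 116, 155 and 185 (log2 -1.38 ± 0.49), and Mpeg1 (perforin-2 of macrophages) at 526, 592 and 686 against 179, 89.5 and 323 (log2 -1.79 ± 0.71), with a second, dim probe set of Mpeg1 at 2.29. Cd68, a lysosomal protein of macrophages, was at 745, 498 and 549 against 369, 454 and 380.0. The fourth gene was Ptprc (CD45), with all 6 signals under 129. The one higher at 42 days was Coro1a, an actin regulator of leukocytes, at 303, 148 and 145 against 370.4, 436 and 432 (log2 1.14 ± 0.74). Csf1r, the receptor that keeps macrophages alive, overlapped at 1069.9, 669 and 926 against 854, 615 and 458. The summed signal of the 23 genes was 14326 to 18306 at 14 days and 7677 to 17788 at 42 days, with the lowest value in Dbl 42 days replicate 2.

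Complement and cytokine genes showed the same direction in part. C3ar1, the receptor for the C3a fragment, was at 357, 397 and 389.8 against 123, 132 and 147, a log2 difference of -1.51 ± 0.46 with the 3 arrays of each age close together. When signals under the 40th percentile were set to it, this was 1 of 4 probe sets that passed in limma (adjusted p = 0.000103). The other 3 were Man1a, Thbd and Ttc14, named because they passed. Such a floor makes clipped signals equal and narrows the spread that the test uses. The standard error of C3ar1 was 0.11 with it and 0.46 without it, where its adjusted p in limma was 0.570. The pass is therefore no firm evidence of a difference. C1qb was at 1356, 716 and 1029.5 against 300.3, 582 and 256 (log2 -1.49 ± 0.61), but its second probe set had 0.29, and C1qa and C1qc overlapped. Of 13 complement genes 2 were lower and 0 higher without overlap, with a median of -0.43 that was -0.19 without Dbl 42 days replicate 2. Among 30 chemokines and cytokines, 3 were lower and 0 higher without overlap, and the median was -0.46. Il6 was at 30.4, 48.9 and 48.3 against 10.7, 8.46 and 4.29 (log2 -2.51 ± 0.86) and Cxcl2, a chemokine for neutrophils, at 75, 56.4 and 60.8 against 6.77, 15.6 and 28.8 (log2 -2.13 ± 0.72). Both genes lie under 129 in all 6 arrays. Csf1, the macrophage growth factor, was at 1208, 632 and 606 against 603, 390.4 and 536, which barely kept the ages apart.

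Immediate early genes are transcribed within minutes of growth factor, stress or JNK signaling. Fosb and a pair of Egr genes were lower in every 42 days array, but the median of the list was that of all genes. Of 28 measured, 0 passed. Without overlap 6 were lower and 0 higher, beside 7.17% and 5.51% of all genes. Fitted differences were above 0 for 12 and below 0 for 16. The median was -0.10, -0.02 without Dbl 42 days replicate 2 and 0.21 without Dbl 14 days replicate 1. Over all genes these medians were -0.10, -0.09 and -0.22. Fosb was at 492, 384 and 479 against 241, 202 and 255 (log2 -0.95 ± 0.36) and Egr1 at 1429.7, 1259 and 845 against 629, 511 and 423 (log2 -1.16 ± 0.47). Dusp1, a phosphatase that shuts off MAP kinases, was at 1411, 1143 and 1364 against 1032, 771 and 547 (log2 -0.78 ± 0.35). The other 3 were Egr2, Map2k4 (a kinase upstream of JNK) and Nfkbia (the NF-kB inhibitor), with log2 differences of -1.13, -0.62 and -0.55. Fos overlapped, although Dbl 42 days replicate 2 was at 299, because the other 5 arrays lay mixed between 1856 and 2545. Jun was at 399, 496 and 253 against 562, 601 and 458, and also overlapped. In wt lenses Fosb and Egr1 had log2 differences of 0.53 and 0.44.

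Promoters of Il6 and Mmp12, described above, are shown because their windows hold TGACTCA (the AP-1 motif). Capitals mark this motif, read as TGAGTCA from the opposite strand. The windows are chr5:30012864-30013163 for Il6 and chr9:7347124-7347423 for Mmp12, both on the plus strand of GRCm38.p6:
Il6: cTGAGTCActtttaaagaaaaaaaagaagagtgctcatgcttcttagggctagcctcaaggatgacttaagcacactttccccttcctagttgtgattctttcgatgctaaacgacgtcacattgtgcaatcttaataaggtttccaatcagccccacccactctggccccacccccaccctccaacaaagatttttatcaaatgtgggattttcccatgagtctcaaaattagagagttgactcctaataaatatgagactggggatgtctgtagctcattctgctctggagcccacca
Mmp12: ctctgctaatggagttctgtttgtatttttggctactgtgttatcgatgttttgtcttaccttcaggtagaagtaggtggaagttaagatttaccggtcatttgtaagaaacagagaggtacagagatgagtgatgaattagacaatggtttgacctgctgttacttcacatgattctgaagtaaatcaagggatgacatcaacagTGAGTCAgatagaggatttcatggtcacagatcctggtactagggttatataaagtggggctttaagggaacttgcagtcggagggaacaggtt
In Mmp12 the motif starts 44 bases before the start site, and in Il6 it starts 249 bases before it, at the edge of the window. Another RefSeq start of Mmp12 has no such letters in its window. TGACTCA on either strand was in 5.2% of all 32851 promoters, in 5 of 20 promoters of the proteases and inhibitors (Mmp3, Mmp10, Mmp12, Mmp13 and Plaur), in 5 of 24 promoters of chemokines and cytokines, and in 0 of 32 promoters of the immediate early list. The windows of Cxcl2 and Csf1, also lower without overlap, do not hold these letters. A match is a run of letters, no site of binding was measured, and a part of AP-1 in any difference was not tested.

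Vessel genes did not part the ages in most cases. Of 15 blood endothelial genes 0 passed, 1 was lower without overlap (Emcn, an endothelial sialomucin, log2 -0.86) and 0 were higher, and Pecam1 (CD31), Cdh5 (VE-cadherin) and Kdr (a VEGF receptor) overlapped. Kdr was at 231, 940.3 and 953 against 778, 354 and 2687, with Dbl 42 days replicate 3 far above the rest. Of 6 lymphatic genes, Vegfc, the growth factor of lymphatic vessels, was at 61.6, 169.6 and 175 against 41, 55.9 and 13.8 (log2 -1.95 ± 0.84), with 42 days signals under 129. The second gene with no overlap was Prox1, which marks lens fibers as well. Among 23 angiogenic factors 4 were lower and 0 higher without overlap, and Pdgfa, a ligand of the receptor encoded by Pdgfra, was at 1619, 894 and 1231 against 717, 706 and 629 (log2 -0.83 ± 0.37). Of 10 antiangiogenic factors, none had ages that did not overlap.

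Retinal genes differed widely between arrays of one age. Gnat1, the alpha subunit of rod transducin, had 14 days signals of 25.1, 1270.3 and 2070.2 against 42.6, 10.6 and 11.9 in the 42 days arrays (log2 -4.53 ± 1.33). Cnga1, the rod cyclic nucleotide-gated channel, was at 7.41, 248 and 112 against 4.41, 18.8 and 3.17 (log2 -3.20 ± 1.17), and Pde6b, a rod phosphodiesterase subunit, at 25.5, 374 and 181 against 24.1, 22 and 35.7 (log2 -2.17 ± 0.82). In these 3 genes Dbl 14 days replicates 2 and 3 were high and replicate 1 was as low as the 42 days arrays, so the ages overlapped. Without that array, Cnga1 and Pde6b had log2 differences of -4.70 and -3.29, and without Dbl 42 days replicate 2 Cnga1 had -3.98. Gnat1 had -6.53 without Dbl 14 days replicate 1 and passed in limma (adjusted p = 0.0236). The 42 days signals of all 3 genes lie under 129, so these differences give a direction and no exact size.

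Other photoreceptor genes had high signals at 42 days. Unc119, a chaperone of lipid-modified transducin, was at 505, 2457 and 3412 against 5601, 3548 and 5146 (log2 1.53 ± 0.62), Rom1, a disc rim protein, at 63.8, 311 and 681 against 1058, 1183 and 813 (log2 2.08 ± 0.91), and Gngt2, the cone transducin gamma subunit, at 17.5, 100.3 and 106 against 469, 583 and 121 (log2 2.49 ± 1.10). These 3 genes were higher in every 42 days array, and without Dbl 14 days replicate 1 their differences were 0.69, 1.13 and 1.64. Sag (arrestin) was at 248, 9088 and 9424 against 2033, 3705 and 1808, and Crx, the transcription factor of photoreceptors, at 169.9, 1079 and 1474 against 1315, 2974 and 626. Of 20 photoreceptor genes 0 passed and 3 were higher and 0 lower without overlap. Their median was -0.31 with all arrays, -0.57 without Dbl 42 days replicate 2 and -1.70 without Dbl 14 days replicate 1. The summed signal of the 20 genes was 7199.8 in Dbl 14 days replicate 1, 30559 and 35539 in replicates 2 and 3, and 17628 to 22705 at 42 days.

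Genes of the inner retina and of neurons were also low in Dbl 14 days replicate 1. The summed signal of 20 genes was 8120.1 in that array, 51968 and 56778 in replicates 2 and 3 of 14 days and 22311 to 60904 at 42 days, the lowest of these being Dbl 42 days replicate 2. Gap43, a growth cone protein, was the single gene with no overlap, at 86.5, 468 and 689 against 969.9, 1058 and 1032 (log2 1.75 ± 0.75, and 0.84 without Dbl 14 days replicate 1). Snap25, a synaptic SNARE, was at 237, 13849 and 11759 against 10871, 2685 and 14095. The median of the list was 0.62, 1.15 without Dbl 42 days replicate 2 and -0.70 without Dbl 14 days replicate 1, so its sign depends on 1 array. The part of retinal RNA in the other differences reported here was not tested.

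**Figure D4:**
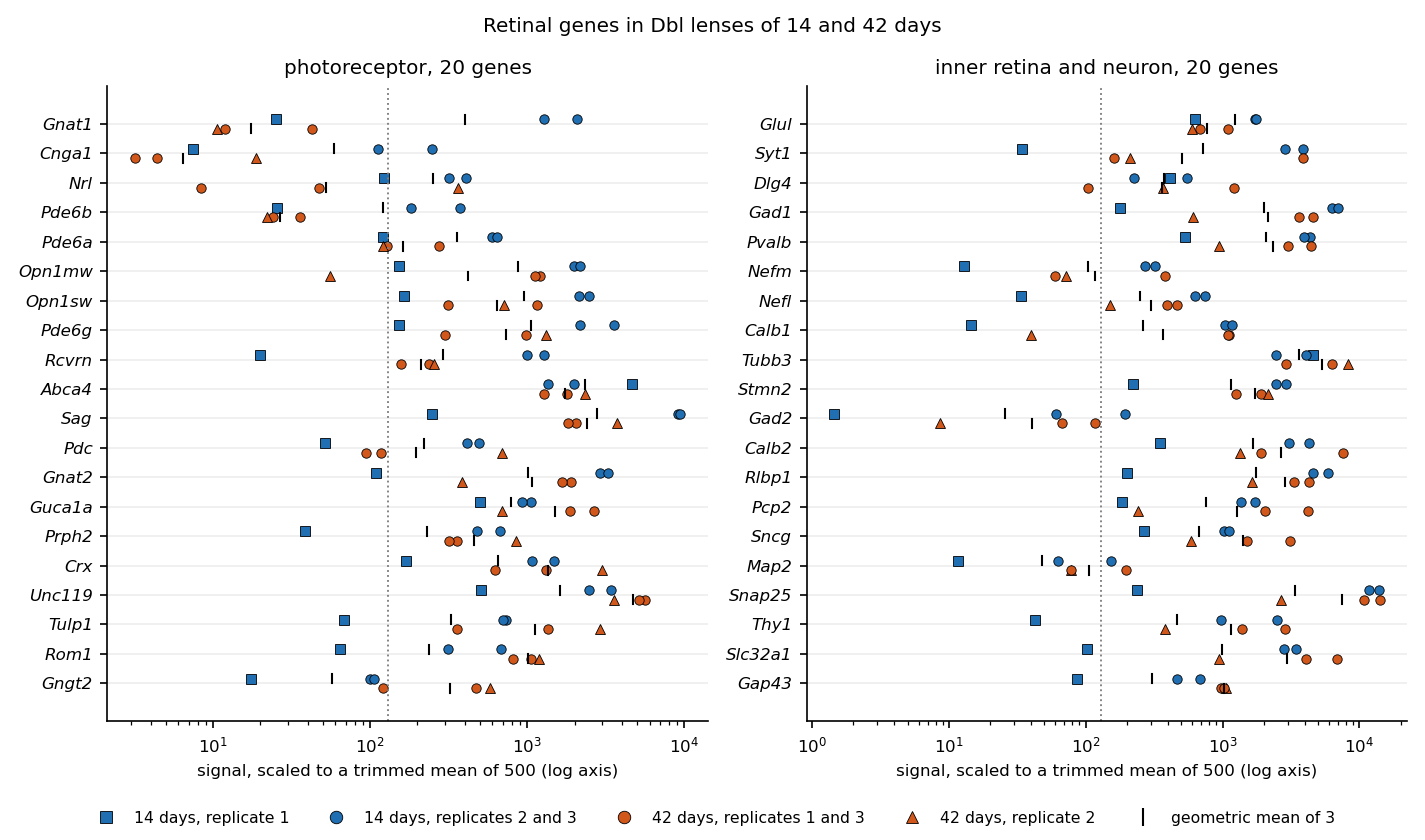
Scaled signal (horizontal axis, log scale) of 20 photoreceptor and 20 inner retinal and neuronal genes, ordered by log2 difference from the lowest at the top; points are arrays, blue for 14 and orange for 42 days, the square Dbl 14 days replicate 1, the triangle Dbl 42 days replicate 2, black bars geometric means of 3 arrays, and the dotted line a signal of 129, the 40th percentile. The square is the leftmost blue point for most genes, and the summed photoreceptor signal of that array (7199.8) is below that of every other array.

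Promoters of 2 rod genes that were high in Dbl 14 days replicates 2 and 3 are shown with fixed motifs in capitals. The window of Cnga1 is chr5:72642703-72643002 on the minus strand and holds TAATCC, the core motif of Crx, and that of Pde6b is chr5:108388123-108388422 on the plus strand and holds TGACTCA on the opposite strand, both in GRCm38.p6:
Cnga1: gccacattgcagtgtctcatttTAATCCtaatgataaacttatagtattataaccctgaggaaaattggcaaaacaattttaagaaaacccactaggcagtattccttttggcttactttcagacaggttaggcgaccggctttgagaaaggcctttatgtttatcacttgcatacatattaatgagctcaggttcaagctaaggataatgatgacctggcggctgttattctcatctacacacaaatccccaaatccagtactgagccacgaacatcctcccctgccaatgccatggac
Pde6b: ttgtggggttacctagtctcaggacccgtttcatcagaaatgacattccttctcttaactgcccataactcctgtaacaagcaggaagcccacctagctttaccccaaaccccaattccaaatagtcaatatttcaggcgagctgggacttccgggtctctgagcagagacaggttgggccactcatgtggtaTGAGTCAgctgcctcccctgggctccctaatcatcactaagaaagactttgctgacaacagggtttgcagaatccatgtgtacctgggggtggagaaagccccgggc
TAATCC on either strand was in 7 of 17 promoters found for 15 photoreceptor genes (Abca4, Cnga1, Crx, Gnat2, Guca1a, Sag and Unc119) and in 7.06% of all 32851 promoters. The genes that hold it include both Cnga1, with low 42 days signals, and Unc119, which was higher at 42 days. TGACTCA, marked in Pde6b, was in 1 of these 17 promoters (5.88%), close to its share of 5.2% of all promoters.

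Cell cycle genes depended on Dbl 42 days replicate 2. Of 40 measured, 0 passed, 1 was higher and 0 lower without overlap, and the median was 0.27. Their summed signal was 54359 in that array and between 17246 and 20769.6 in the other 5. Ccnd1, cyclin D1, was at 1339, 364 and 466 against 452, 4821 and 619, and Mcm5, of the replicative helicase, at 637, 77.8 and 250.2 against 244, 1868 and 205. In both genes a single 42 days array was high. Without it the median was -0.26. The gene with no overlap was Stmn1, a microtubule destabiliser, at 2522, 5832 and 5531 against 8084, 13766 and 8342 (log2 1.17 ± 0.67). A dim second probe set of Stmn1, with a mean signal of 34.3, had -0.97 with overlap. TTTGAA, the letters of the cell cycle homology region, were in 14 of 34 promoters of this list and in 17.9% of all promoters, and CCAAT in 25 of the 34.

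Most glycolytic genes had differences above 0, without passing. Of 17 measured, 0 passed, 1 was higher and 0 lower without overlap, and 13 had a difference above 0, as had 3667 of all 8251 genes. The median of 0.59 was 0.60 without Dbl 42 days replicate 2 and 0.87 without Dbl 14 days replicate 1. Ldhb, the lactate dehydrogenase of oxidative tissues, was at 235, 609 and 496 against 1607, 1072 and 1707 (log2 1.79 ± 0.53), and in wt lenses it had a log2 difference of 1.87. A dim second probe set of Ldhb, with a mean signal of 10.2, had -1.92. Aldoa, aldolase A, was at 18701, 2678 and 3388 against 15446, 14542 and 9594. Here Dbl 14 days replicate 1 was above the 42 days arrays, so the ages overlapped.

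Cholesterol synthesis, ribosomal and mitochondrial genes had medians above 0 as well. Of 15 cholesterol synthesis genes 13 had a difference above 0, 2 were higher without overlap (Fdps and Fdft1, the squalene synthase, at 746, 692 and 886 against 1039.8, 1013 and 1139), and the median was 0.38, and 0.19 without Dbl 42 days replicate 2. The 22 ribosomal protein genes had a median of 0.47, 0.25 without Dbl 42 days replicate 2, all of them with overlap. Rps3 was at 16659, 9112 and 10724 against 16066, 22369.5 and 27450.5. Of 31 genes of oxidative phosphorylation, 2 were higher and 1 lower without overlap (median 0.33). Ndufv1, of complex I, was at 3014, 4693 and 5527 against 5953, 5531 and 8957, and Cox7b, of complex IV, was lower, at 3172, 5784 and 4499 against 1884, 2809.7 and 2787 (log2 -0.83 ± 0.37). All counts of this kind are to be read beside 5.51% of genes higher and 7.17% lower without overlap.

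Among signaling pathways, a few members separated the ages, as did 5.51% of all genes with higher and 7.17% with lower signals at 42 days. Tgfb2, a TGF-beta ligand of the eye, was at 2515, 1402 and 1078 against 737, 413 and 996 (log2 -1.22 ± 0.48), and Id3, an inhibitor of helix-loop-helix factors and a target of BMP signaling, at 1341, 902 and 578 against 1489, 1428 and 1565 (log2 0.75 ± 0.35). Of 34 TGF-beta and BMP genes 3 were lower and 1 higher without overlap. Hes5, a target of Notch, was at 41, 93.9 and 53.5 against 167, 1116 and 134 (log2 2.31 ± 0.89), and 1 of 18 Notch genes was higher and 0 lower without overlap. Its difference was 1.34 without Dbl 42 days replicate 2, the array in which it stood highest, and its dimmer second probe set had -0.18. Of 37 Wnt genes 3 were lower and 2 higher without overlap, with a median of -0.32.

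Of 27 pro-apoptotic genes 4 were lower and 0 higher without overlap, and of 18 anti-apoptotic genes 0 either way. Bcl2l11 (Bim) was at 1135, 647 and 602 against 374, 408 and 457 (log2 -0.89 ± 0.42) and Bid at 375, 237 and 237 against 130.4, 144 and 152 (log2 -0.96 ± 0.47). Both encode BH3 proteins that trigger mitochondrial apoptosis. Other probe sets of Bcl2l11 had log2 differences of -0.27 and 0.45, with overlap. The medians of the pro-apoptotic and anti-apoptotic lists were -0.08 and -0.33, beside -0.10 for all genes. Without Dbl 42 days replicate 2 they were -0.17 and -0.35, beside -0.09. Without Dbl 14 days replicate 1 they were -0.13 and -0.34, beside -0.22.

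**Figure D5:**
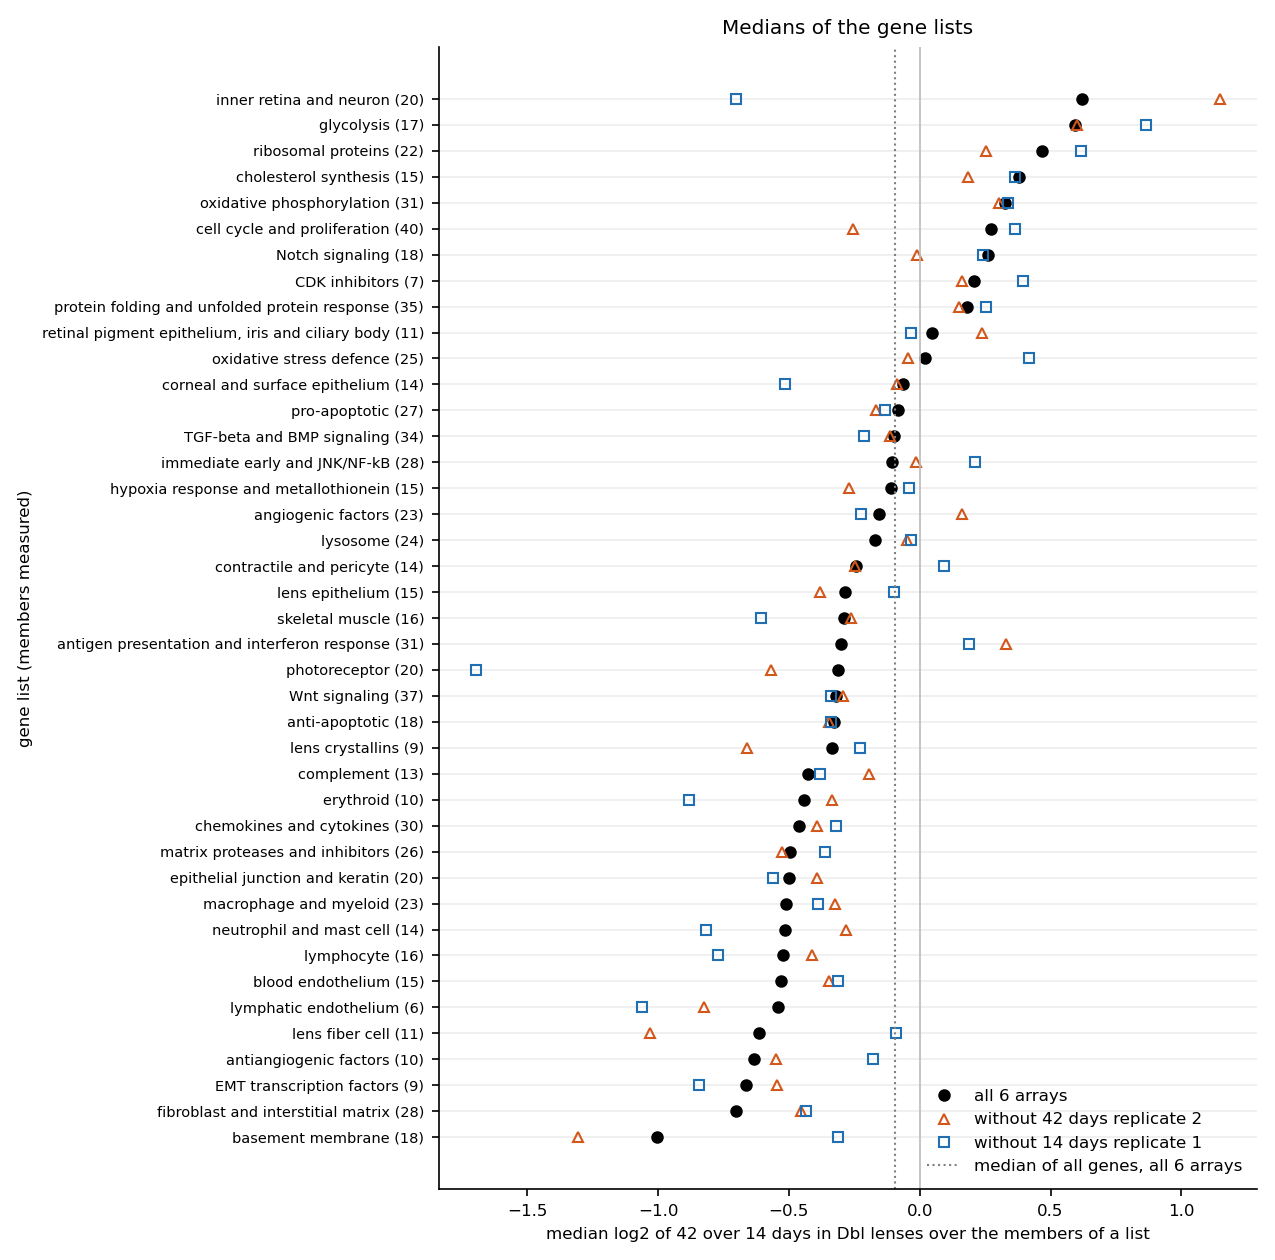
Median log2 difference of 42 against 14 days in Dbl lenses (horizontal axis) over the measured members of each gene list (vertical axis, number of genes in brackets), with all 6 arrays (black), without Dbl 42 days replicate 2 (orange triangles) and without Dbl 14 days replicate 1 (blue squares); the dotted line is the median of all genes. Basement membrane has the lowest black point (-1.0) but not the lowest blue square, and the photoreceptor and inner retinal lists have the widest distance between settings.

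The difference with age in Dbl lenses was set against that in wt lenses in 1 test of the difference. No probe set passed (0 of 12422, 0.0%), and 481 (3.87%) had an unadjusted p under 0.05. In wt lenses alone 0 passed between 42 and 14 days as well (0.0%), and 807 (6.5%) had an unadjusted p under 0.05. Among genes with no overlap between the ages in Dbl lenses and a mean signal above the median probe set, those with the smallest p for a more positive difference with age in Dbl than in wt lenses were Stoml2, Hspa14 (a ribosome-associated Hsp70 protein), Pabpn1 (a nuclear poly(A) binding protein), Hikeshi (a nuclear import factor for Hsp70), Hdac3 and Psma6 (a proteasome subunit). Hspa14 was at 194, 199 and 194 against 411, 562 and 424 in Dbl lenses (log2 1.24 ± 0.36) and had -0.72 in wt lenses. In the other direction they were Oca2, Cdh3, Fosb, Septin11, Tcea2 and Casq1. A dimmer probe set of Tcea2, with a mean signal of 110 over the 6 arrays, went the other way. It was higher at 42 days in Dbl lenses without overlap (log2 2.05). Oca2, a melanosome protein of pigmented eye tissues, was at 317, 372 and 305 against 118, 139 and 169.9 in Dbl lenses (log2 -1.23 ± 0.34) and had 0.60 in wt lenses, while other pigment genes such as Tyrp1 (1425, 346 and 331 against 869, 249 and 935) overlapped. None of these 12 differences passed, each with an adjusted p of 0.99968 or above in limma.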

How the data were processed

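Total RNA of pooled whole lenses was hybridised to Affymetrix Murine Genome U74Av2 arrays. The deposited values are MAS5 signal intensities, 1 per probe set and array, made by the authors with the MAS5 algorithm and on different targets, with a trimmed mean near 500 for 11 arrays and below 100 for 7. The number of arrays limits the precision, and intensities carry no read depth.

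Here each array was scaled to a mean of 500 after trimming 2% at each end, the 154 signals below 1 were set to 1, and log2 was taken. Of 12488 probe sets, 66 controls were left out and 12422 were tested. GEO's platform annotation gave 1 symbol for 10833 probe sets, several for 396 and none for 1193, and 8251 genes had a probe set of their own. A gene was counted on its brightest probe set over 18 arrays, except among the named genes below, where each probe set stood for itself. The 3 arrays of a group are independent pools, and each p measures the spread between pools.

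The comparison of 42 against 14 days was fitted with limma 3.58.1 in R 4.3.3 (1 mean for each of 6 groups over 18 arrays, eBayes with a trend) and adjusted by Benjamini-Hochberg, with 0.05 as the threshold. The methods' rank test cannot pass with 3 against 3 arrays. Fits were tested on simulated data.

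Genes were named by a rule: up to 12 each way with a mean signal above the median probe set and no overlap between ages, filled by smallest p since none passed, up to 4 of each of 42 gene lists, and up to 6 each way for the difference between Dbl and wt. Other members are described where the account of a list needs them, and these were chosen after their values were seen. The comparison, the gene lists and the motifs were chosen with earlier results of these data known. Alternatives were the scaling, the floor, a pseudocount of 16, a filter on low signals, no trend, fewer arrays in the fit, array weights, blocks and leaving out arrays. The result of 1 gene list is not reported here. Promoters are those of RefSeq on GRCm38.p6.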

Additional observations from a re-analysis of the deposited data

How the results depend on the processing

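No probe set passed in either direction when arrays were scaled to the median, quantile normalised, given a pseudocount of 16, filtered on low signals, fitted without a trend, fitted as 12 or 6 arrays, or blocked by deposited target. Array weights gave 32 higher and 36 lower, the floor at the 40th percentile 0 higher and 4 lower, and the methods' rule 491 and 750, for reasons of construction in the last case, which has no adjustment. The floor makes clipped signals equal, which can narrow the spread that the test uses. Leaving out 1 array at a time gave 0 to 3 higher and 0 to 2 lower. Without Dbl 14 days replicate 1 there were 3 and 2, without Dbl 42 days replicate 1 there were 0 and 1 (a dim probe set of Pdgfra), and 0 in each other case. With both Dbl 14 days replicate 1 and Dbl 42 days replicate 2 left out, a setting chosen after seeing the data, 1 was higher (Ruvbl1) and 0 lower. For the difference in ageing between Dbl and wt lenses, the floor gave 2 lower and every other setting 0. The cause was not tested. With the replicate number as a block 0 passed. Same-numbered arrays of the 2 ages correlated in their deviations from the group means at -0.151, -0.313 and 0.136. Deviations within a group of 3 arrays are tied to each other, so these values cannot decide whether the numbers pair the pools.

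Single genes that turned sign did so on 1 or 2 arrays or at small differences, and none of them had passed. Leaving out 1 array at a time, Myh11 ran from -2.74 to 0.18 (above 0 without Dbl 14 days replicate 1), Pdpn from -0.80 to 0.45 (above 0 without Dbl 14 days replicate 1 or Dbl 42 days replicate 3), Mitf from -0.20 to 1.69 (below 0 without Dbl 14 days replicate 1) and Aldh3a1 from -2.02 to 0.10 (above 0 without Dbl 42 days replicate 2). Pdpn was also at 0.45 without both 42 days replicates 3, and Aldh3a1 at 0.10 without replicate 2 of Dbl 42 and Dbl 2 days. With the same 2 arrays left out together Myh11 was at 1.0, Timp3 at 0.31, Trpm1 at 0.13 and Aldh3a1 at 1.16. Pdpn was at 0.30 and Mitf at -0.071 with array weights, and Cdkn2b at -0.0046 with the floor. Pdpn was at 0.048 without Dbl 14 days replicate 1.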

Other observations

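Several other gene groups of the lens pools had few members whose ages did not overlap, and 0 members passed. Higher and lower below mean that all 3 arrays of 42 days lay on that side of all 3 of 14 days. Of all genes 5.51% were higher and 7.17% lower in this way, and the counts are to be read beside these shares. Of 35 genes of protein folding, 3 were higher (Dnajb11, Fkbp4 and Atf4) and 1 lower (Hspb1, the small heat shock protein Hsp27, at 47.3, 56.4 and 83.9 against 9.31, 7.53 and 19, all under the 40th percentile of 129). Atf4, a transcription factor of the unfolded protein response, was at 3256, 1803 and 2099.9 against 3659, 4814 and 4704. Of 25 genes of oxidative stress defence, Gsta4, a glutathione transferase for lipid peroxides, was higher, at 200.2, 238 and 161 against 459, 291 and 578. In that list Gclc, of glutathione synthesis, and Nfe2l2 (Nrf2) were lower, with log2 differences of -0.89 and -0.59.

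Of 20 genes of epithelial junctions and keratins, 4 were lower and 0 higher without overlap. Tjp1 (ZO-1, of tight junctions) was at 2352, 2237 and 1368 against 1269, 1252 and 928, and Dsp (desmoplakin, of desmosomes) at 188, 155 and 95.4 against 67.7, 81.6 and 91.8. The others were Cldn4 and Dsc2. Of 31 genes of antigen presentation and interferon response, 2 were lower (Tap1 and Irf7), and a second probe set of Irf7 was higher, with a log2 difference of 0.92. The median of that list was -0.30, but 0.33 without Dbl 42 days replicate 2 and 0.19 without Dbl 14 days replicate 1.

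Outside the retina few markers of other tissues parted the ages. Of 16 skeletal muscle genes 2 were lower (Ckm, at 234, 708 and 1008 against 149, 148 and 112, and Mb), of 14 corneal and 14 contractile genes 0 parted the ages either way, and of 11 pigment genes 1 was lower (Oca2). Of 14 neutrophil and mast cell genes S100a9 was higher and Tpsb2 lower. Single genes were lower among 16 lymphocyte genes (Ighm), 10 erythroid genes (Epb42), 15 genes of hypoxia and metallothionein (Ero1a) and 24 lysosomal genes (Lamp2, at 2816, 3002 and 2769.5 against 1944, 785 and 1670.2). Such counts are to be read beside 7.17% of all genes. Other probe sets of Ighm had log2 differences from -2.98 to 1.26, all with overlap, and another of Epb42 had 0.49. Of 7 CDK inhibitors 1 was higher (Cdkn1b).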
